A study of Homo sapiens with 18 samples.

Results

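Hepatocyte identity rests on a small network of transcription factors that bind the regulatory regions of liver genes together and also bind those of one another. FOXA1, FOXA2 and FOXA3 are forkhead proteins that can open compacted chromatin. HNF4A is a nuclear receptor that drives a large share of hepatocyte genes, CEBPA is a leucine zipper factor of mature, non-dividing hepatocytes, ONECUT1 is a cut homeodomain factor of liver and bile duct development, NR5A2 is a nuclear receptor of bile acid and cholesterol genes, and PROX1 is a homeodomain protein that often acts as a corepressor. These 8 genes were taken as the rows of the count table whose Ensembl identifier carries one of the 8 symbols, 8 of 61806 rows. All 8 passed the filter on low counts and were among the 19743 genes tested.

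The samples were cultures of 2 lines. HepG2 is a human hepatoma line, here with the wild-type genotype, and APOA4-KO is HepG2 edited with CRISPR-Cas9 in APOA4 and grown from picked single colonies, so that it stands for 1 edited line. Each line was sampled untreated in 21% oxygen (0 h) and after 24 h and 48 h in 1% oxygen, which gave 6 groups of 3 libraries and 18 libraries of poly(A) RNA in all. No cells were kept in 21% oxygen for 24 h or 48 h, so hypoxia and time in culture cannot be told apart, and neither can the edit and any other difference between the lines. Nothing in the labels says that the 3 libraries of a group came from separate cultures, and the p-values measure the spread between these libraries.

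Library totals lay between 76481820 and 91604947 counts. Counts that are multiples of 4 were in excess in every library, for a count of 4 by 2.66 to 3.12 times over its neighbours, so that a small count need not stand for as many read pairs. The targeted gene, APOA4, had 702 to 799 counts per library in HepG2 and 607 to 702 in APOA4-KO at 0 h, 1522 to 1763 and 585 to 696 at 24 h, and 1673 to 1968 and 551 to 648 at 48 h, so that the gap lay mostly in hypoxia, and these counts tell nothing of the protein. Defining hepatocyte transcripts were plentiful in both lines: the summed level of 11 of them lay between 60191 and 77238 CPM (counts scaled to the library total with TMM factors) in HepG2 and between 69320 and 90257 CPM in APOA4-KO. For 4 endothelial markers the sum was at most 15.7 CPM in every library, for 6 macrophage and blood cell markers at most 76.4 CPM and for 5 stellate and fibroblast markers at most 54.2 CPM. The sum of 4 biliary and progenitor markers lay between 819 and 1001 CPM in HepG2 and between 673 and 999 CPM in APOA4-KO. The sum of 5 mesenchymal markers was 15.1 to 20.7 CPM in HepG2 and 22.8 to 46.6 CPM in APOA4-KO, with TWIST1 at 0 in 3 of the 6 groups, and its part in the differences between the lines was not tested. In the poly(A) RNA of whole cultures, fewer cells that express a gene and less RNA per cell cannot be told apart.

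All members are protein-coding genes, and their positions are those of GENCODE v29 on GRCh38. HNF4A (ENSG00000101076) lies at chr20:44355700-44434596 on the plus strand and FOXA2 (ENSG00000125798) at chr20:22581005-22585455 on the minus strand. FOXA1 (ENSG00000129514) lies at chr14:37589984-37596059 (minus), FOXA3 (ENSG00000170608) at chr19:45863989-45873797 (plus) and CEBPA (ENSG00000245848), which has a single exon, at chr19:33299934-33302564 (minus). ONECUT1 (ENSG00000169856) is at chr15:52756989-52791078 (minus), NR5A2 (ENSG00000116833) at chr1:200027602-200177424 (plus) and PROX1 (ENSG00000117707) at chr1:213983181-214041502 (plus). Annotated genes on the opposite strand cover 25.0% and 18.3% of the exonic bases of CEBPA, and these 2 genes, AC008738.3 and AC008738.5, had at most 1 and 4 counts in a library against at least 4680 for CEBPA. The exons of PROX1-AS1 share 1.92% of the exonic bases of PROX1, those of TTC6 share 0.40% of FOXA1, and those of AL121722.1, which lies on the same strand and was not analysed here, share 2.69% of FOXA2.

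The 250 bases before the annotated start are shown for CEBPA and ONECUT1, whose levels moved in opposite directions between the lines, and for both starts of HNF4A, which lie 45540 bases apart. They are written 5′ to 3′ on the strand of the gene, from RefSeq on GRCh38.p14, with capitals for the short core motifs searched on both strands. For CEBPA the last 30 bases before the start are left out because GENCODE places them in the exon.
CEBPA, chr19:33302565-33302784, minus strand: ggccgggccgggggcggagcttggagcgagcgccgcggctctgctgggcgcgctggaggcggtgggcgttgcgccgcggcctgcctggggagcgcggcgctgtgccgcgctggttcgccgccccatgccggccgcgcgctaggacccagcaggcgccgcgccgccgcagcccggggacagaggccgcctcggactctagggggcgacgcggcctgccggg
ONECUT1, chr15:52790337-52790586, minus strand: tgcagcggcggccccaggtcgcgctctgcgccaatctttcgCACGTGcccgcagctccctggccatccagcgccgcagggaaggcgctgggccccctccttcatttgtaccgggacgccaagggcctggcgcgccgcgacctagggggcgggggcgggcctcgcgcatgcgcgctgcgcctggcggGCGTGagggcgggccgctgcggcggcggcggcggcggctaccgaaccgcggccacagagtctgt
HNF4A, upstream start, chr20:44355449-44355698, plus strand: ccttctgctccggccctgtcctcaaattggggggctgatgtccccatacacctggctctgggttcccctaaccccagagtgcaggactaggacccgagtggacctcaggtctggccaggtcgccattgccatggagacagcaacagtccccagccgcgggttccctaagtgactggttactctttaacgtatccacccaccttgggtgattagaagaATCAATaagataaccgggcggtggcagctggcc
HNF4A, downstream start, chr20:44400989-44401238, plus strand: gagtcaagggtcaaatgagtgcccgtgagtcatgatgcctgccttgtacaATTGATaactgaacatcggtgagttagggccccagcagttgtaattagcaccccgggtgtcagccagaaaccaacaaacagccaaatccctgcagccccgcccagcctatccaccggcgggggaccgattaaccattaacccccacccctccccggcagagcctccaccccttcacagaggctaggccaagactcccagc

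The motifs searched included ACGTG, a core of the site bound by hypoxia-inducible factors, together with its variant beginning with G, which is GCGTG. For ONECUT factors the core ATTGAT was searched. For the forkhead factors TGTTTAC was used. For nuclear receptors of the NR5A kind the letters were AAGGTCA. For the leucine zipper factors of the C/EBP family they were TTGCNNAA. The window of ONECUT1 held ACGTG on both strands in one palindrome, CACGTG, 209 bases before the start, and GCGTG 64 bases before it. Of all 35116 RefSeq windows of this length, 18.5% held ACGTG and 32.2% held GCGTG. Each of the 2 windows of HNF4A held ATTGAT once, 33 bases before the upstream start on the opposite strand and 200 bases before the downstream start, and 5.58% of all windows held it. The window of FOXA3 held GCGTG 24 bases before the start, and 1 of the 2 windows of NR5A2 held TGTTTAC, found in 2.98% of all windows. GENCODE places 182 of the 250 bases of the FOXA3 window in exons, 99 of the FOXA1 window and 108 of the NR5A2 window without a match. The windows of CEBPA and FOXA1 held none of the 6 motifs. AAGGTCA (3.44% of all windows) and TTGCNNAA (9.05%) were in no window of these 6 genes. Such a match is a description of letters and not of binding.

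Levels between genes were compared in FPKM, which divides the count by the length of the gene. The lengths behind the deposited values were 1.42 times the annotated exonic bases for HNF4A (10389 against 7311) and 1.62 times for ONECUT1, and 0.991 to 1.13 times for the other members. CEBPA had the highest level of the 8 transcripts in HepG2 at every time, with 86.6 ± 2.56 FPKM (mean ± SD, n = 3) at 0 h, 42.1 ± 0.610 FPKM at 24 h and 69.5 ± 2.70 FPKM at 48 h. FOXA3 and HNF4A came next, at 33.1 ± 1.21 and 32.7 ± 0.190 FPKM in HepG2 at 0 h. FOXA1, FOXA2 and PROX1 followed with 23.9 ± 1.01, 15.6 ± 1.31 and 7.75 ± 0.308 FPKM, ONECUT1 was scarce at 1.26 ± 0.0265 FPKM, and NR5A2 was close to absent at 0.0600 ± 0.0100 FPKM. The order changed in APOA4-KO under hypoxia. HNF4A led at 24 h with 35.7 ± 0.0702 FPKM and FOXA3 led at 48 h with 40.4 ± 2.24 FPKM, while CEBPA came after HNF4A, FOXA3 and FOXA2 at both times with 24.5 ± 1.54 and 22.7 ± 0.311 FPKM. HNF4A and FOXA2 (31.5 ± 6.15 FPKM), and FOXA3 (24.8 ± 0.906 FPKM) and CEBPA, differed by less than their spread at 24 h. The ratio of CEBPA to HNF4A in FPKM was 2.55 to 2.72 in the 3 HepG2 libraries at 0 h and 0.651 to 0.669 in the 3 APOA4-KO libraries at 48 h. With the annotated exonic bases as the length, HNF4A was at 46.5 ± 0.270 FPKM in HepG2 at 0 h, above FOXA3 at 32.8 ± 1.20, and led in APOA4-KO at 48 h with 49.0 ± 0.538 against 40.02 ± 2.22 for FOXA3, while the ratio of CEBPA to HNF4A was 1.81 to 1.93 and 0.463 to 0.476 in the same groups. In APOA4-KO at 24 h the annotated length set HNF4A, at 50.8 ± 0.0998 FPKM, apart from FOXA2 at 33.6 ± 6.57. The mean of CEBPA (24.7 ± 1.56 FPKM) was then above that of FOXA3 (24.6 ± 0.898 FPKM), by less than their spread. ONECUT1 and NR5A2 were the lowest of the 8 in all 6 groups with either length.

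**Figure D1:**
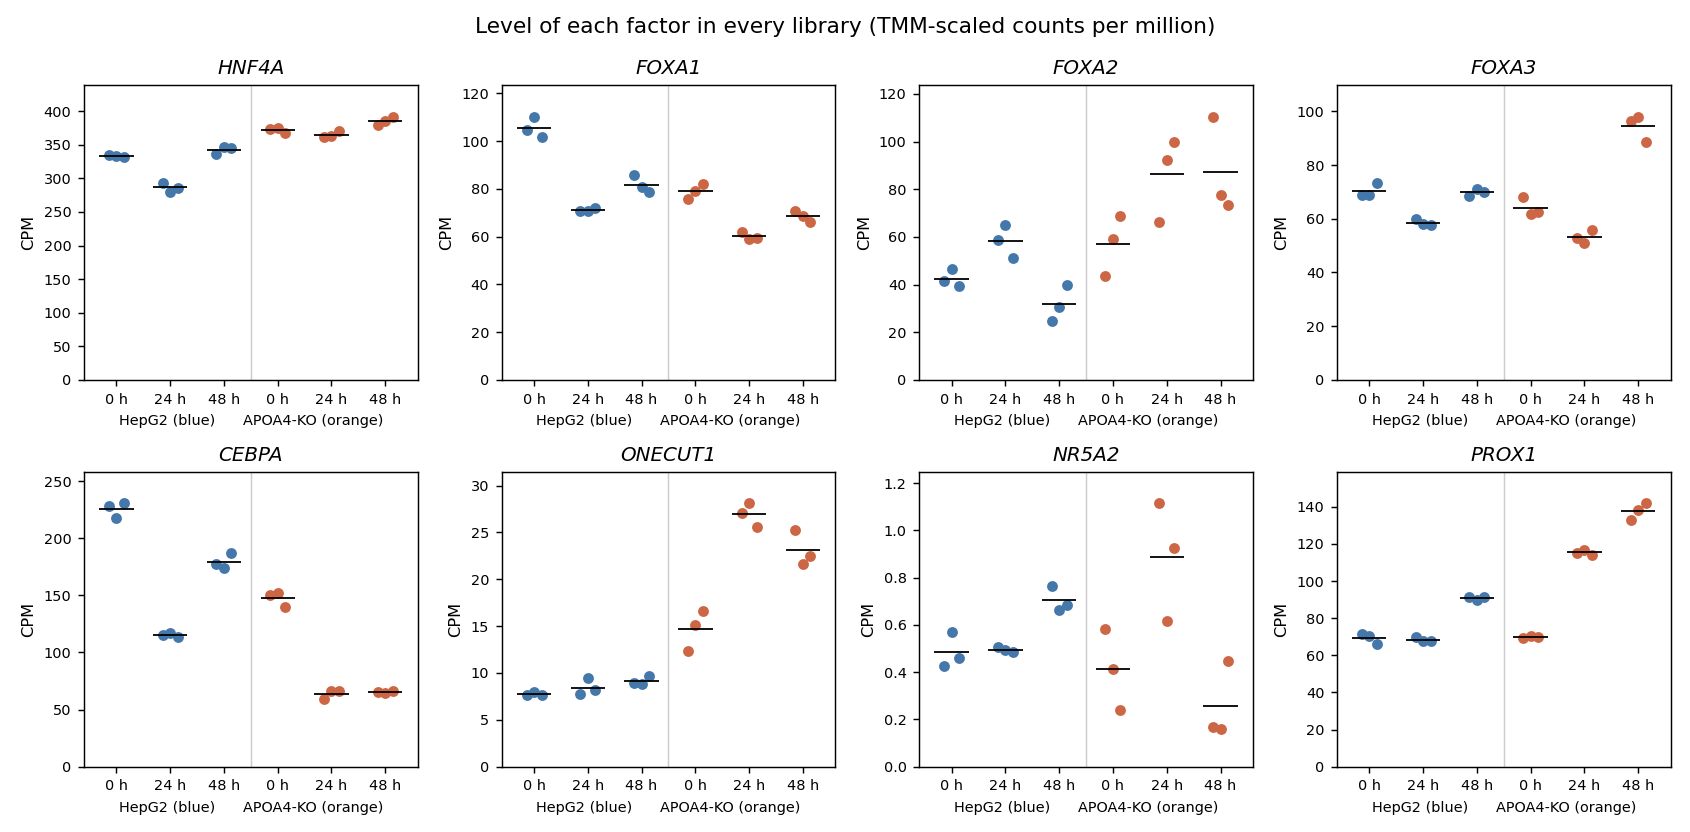
Level of each of the 8 transcripts in CPM (TMM-scaled, linear axis from 0) in every library, with 1 point per library and a line at the mean of the 3 libraries of a group, blue for HepG2 and orange for APOA4-KO. CEBPA is highest in HepG2 at 0 h (mean 225 CPM) and lowest in APOA4-KO at 24 h and 48 h (63.9 and 65.0 CPM), while ONECUT1 and PROX1 are higher in APOA4-KO at 24 h and 48 h than in any HepG2 library.

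The first comparison asked how the edited line differed from HepG2 at each time. A gene was called at a Benjamini-Hochberg adjusted p under 0.05 in edgeR's quasi-likelihood test over all 19743 genes, and all fold changes below are log2 values of CPM. At 0 h, 2 of the 8 members were higher and 3 lower in APOA4-KO, where 12.9% of all tested genes were higher and 17.6% lower. DESeq2 and limma on log2(FPKM + 1) each gave 2 higher and 2 lower there. At 24 h, 4 were higher and 3 lower, beside 23.6% and 24.6% of all genes. At 48 h all 8 were called, 5 higher and 3 lower, beside 23.5% and 27.3% of all genes. With a further limit of 1 on the size of the log2 fold change, the members called were 0 at 0 h (4.31% of all genes), 1 at 24 h (7.77%) and 4 at 48 h (13.6%). The 8 log2 fold changes had a median of −0.063 at 0 h, of 0.46 at 24 h and of 0.30 at 48 h, while that of all tested genes was −0.0067, 0.0095 and −0.038. The members moved both ways. CEBPA and FOXA1 were lower in APOA4-KO at every time, HNF4A and ONECUT1 were higher at every time, and the remaining 4 differed in call or direction between the times. No member passed both limits at 0 h in DESeq2 or in limma on log2(FPKM + 1) either, nor at an unadjusted p under 0.05. With 1 library left out, however, ONECUT1 at 0 h ranged from 0.83 to 1.03 and was called in all 18 refits. It thus passed both limits at the upper end of that range. In the order of the 6 group means of each member, the libraries of neighbouring groups overlapped for 1 of 5 pairs of neighbours for HNF4A, FOXA1, FOXA3 and CEBPA, for 2 for ONECUT1 and PROX1, and for 4 for FOXA2 and NR5A2. How often such groups overlap for other genes was not counted, so these counts do not set the members apart.

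**Figure D2:**
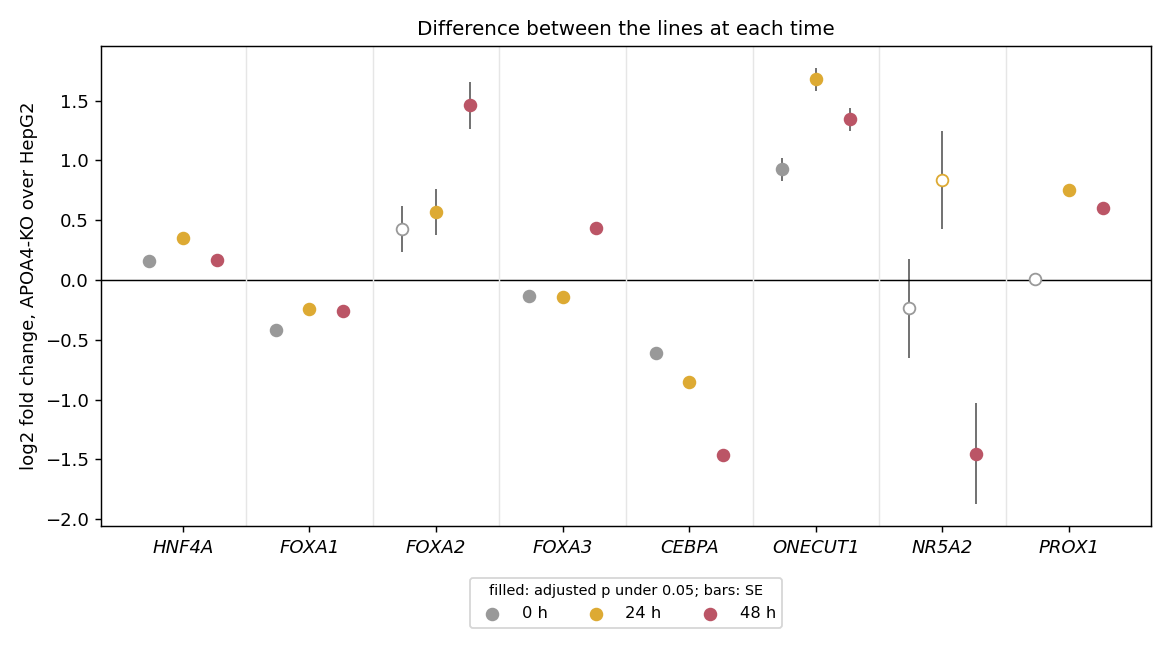
Log2 fold change of APOA4-KO over HepG2 for each member at 0 h, 24 h and 48 h (vertical axis, edgeR), with standard errors as bars and filled points for an adjusted p under 0.05. CEBPA falls further below HepG2 at each later time (−0.61, −0.85 and −1.46), and ONECUT1 stands above it at all 3 times (0.93, 1.68 and 1.34).

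CEBPA, the basic leucine zipper factor of mature hepatocytes, was the member with the largest span of group means, 3.53-fold from lowest to highest. In HepG2 its level was 228, 218 and 230.5 CPM in the 3 libraries at 0 h, 115, 117 and 114 CPM at 24 h and 177, 174 and 187 CPM at 48 h. In APOA4-KO it was 151, 152 and 140.1 CPM at 0 h, 58.8, 66.5 and 66.5 CPM at 24 h and 65.0, 64.1 and 65.9 CPM at 48 h. At each time every APOA4-KO library lay below every HepG2 library, and hypoxic APOA4-KO libraries were the lowest of all 18. The log2 fold change between the lines was −0.61 (SE 0.044, adjusted p = 2.94e-09) at 0 h, −0.85 (SE 0.044, adjusted p = 9.74e-12) at 24 h and −1.46 (SE 0.045, adjusted p = 2.92e-15) at 48 h, the last a 2.76-fold lower level. In HepG2 CEBPA fell at 24 h and was nearer to its first level at 48 h, with changes from 0 h of −0.97 (adjusted p = 4.55e-12) and −0.33 (adjusted p = 1.01e-05). For APOA4-KO the changes to 24 h and 48 h were −1.21 (adjusted p = 9.43e-14) and −1.18 (adjusted p = 6.33e-14). The change to 48 h differed between the lines by −0.85 (SE 0.062, adjusted p = 2.53e-09), and the change to 24 h by −0.24 (SE 0.062, adjusted p = 0.00557).

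FOXA1, a forkhead factor, moved most like CEBPA among the members. Its libraries had 105, 110.2 and 102 CPM in HepG2 at 0 h, 70.8, 70.9 and 71.8 CPM at 24 h and 85.6, 80.9 and 78.7 CPM at 48 h. In APOA4-KO they had 75.9, 79.2 and 81.8 CPM at 0 h, 62.0, 58.9 and 59.4 CPM at 24 h and 70.6, 68.5 and 66.2 CPM at 48 h. HepG2 at 0 h stood above all other groups, and the groups of the 2 lines did not overlap at any time. FOXA1 was lower in APOA4-KO, with log2 fold changes of −0.42 (SE 0.041, adjusted p = 1.93e-07) at 0 h, −0.24 (SE 0.041, adjusted p = 4.87e-05) at 24 h and −0.26 (SE 0.041, adjusted p = 2.65e-05) at 48 h. It fell from 0 h in both lines, with log2 changes to 24 h and 48 h of −0.57 and −0.37 in HepG2 and of −0.39 and −0.21 in APOA4-KO, all 4 with an adjusted p of at most 0.000288. The fall was smaller in APOA4-KO, with differences of 0.17 (adjusted p = 0.0259) at 24 h and 0.16 (adjusted p = 0.0346) at 48 h. The call at 24 h was lost without HepG2 0 h replicate 2 (adjusted p = 0.0551), HepG2 24 h replicate 1 (0.0506) or APOA4-KO 0 h replicate 1 (0.0535), and in DESeq2 (0.076). The call at 48 h was lost without HepG2 0 h replicate 1 (0.0607) or 2 (0.109), HepG2 48 h replicate 2 (0.0749) or 3 (0.106), APOA4-KO 0 h replicate 1 (0.104) or 2 (0.0608), or APOA4-KO 48 h replicate 1 (0.0916) or 2 (0.0586), and the value turned to −0.011 (adjusted p = 0.925) when counts were scaled to the library size alone.

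FOXA2 showed the opposite course to FOXA1 in APOA4-KO, on a wide spread between libraries. HepG2 had 41.6, 46.4 and 39.5 CPM at 0 h, 58.6, 65.0 and 50.9 CPM at 24 h and 24.6, 30.5 and 39.8 CPM at 48 h. APOA4-KO had 43.4, 59.0 and 68.8 CPM at 0 h, 66.3, 92.4 and 99.8 CPM at 24 h and 110.5, 77.7 and 73.2 CPM at 48 h. The lines overlapped at 0 h and did not at 24 h and 48 h. The median coefficient of variation within a group was 21.4%, and 99.3% of the 3609 genes within 2-fold of its mean CPM had a lower one, with a median of 3.35%. At 48 h FOXA2 was 2.75-fold higher in APOA4-KO, a log2 fold change of 1.46 (SE 0.20, adjusted p = 3.7e-06). The differences at 0 h and 24 h were 0.43 (adjusted p = 0.113) and 0.57 (adjusted p = 0.0203), and the one at 24 h was lost without HepG2 24 h replicate 3 (adjusted p = 0.0885), without APOA4-KO 24 h replicate 2 (0.0664) and without APOA4-KO 24 h replicate 3 (0.0828). The one at 0 h passed the limit without APOA4-KO 0 h replicate 1 (0.59, adjusted p = 0.0323) and in a fit to only the groups compared (0.0292). From 0 h, FOXA2 in HepG2 changed by 0.45 (adjusted p = 0.0928) at 24 h and −0.43 (adjusted p = 0.124) at 48 h, neither past the limit. The first passed it in a fit to only the groups compared (0.51, adjusted p = 0.00105), and the latter without HepG2 48 h replicate 3 (−0.61, adjusted p = 0.0391). In APOA4-KO the changes were 0.59 (adjusted p = 0.0166) and 0.61 (adjusted p = 0.0129). They were lost without APOA4-KO 0 h replicate 1 (adjusted p of 0.0823 and 0.0655), and the change to 48 h also without APOA4-KO 48 h replicate 1 (0.0864) and with the library size alone (0.45, adjusted p = 0.0607). The change to 24 h was also lost without APOA4-KO 24 h replicate 2 (0.0581) and replicate 3 (0.068). The change to 48 h was higher in APOA4-KO than in HepG2 by 1.04 (SE 0.27, adjusted p = 0.0055).

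FOXA3, the forkhead factor with the highest FPKM of the 3 in HepG2, differed little between the lines until 48 h. Its level in HepG2 was 69.0, 68.8 and 73.5 CPM at 0 h, 59.9, 58.2 and 57.6 CPM at 24 h and 68.7, 71.0 and 70.0 CPM at 48 h. In APOA4-KO it was 68.3, 61.8 and 62.5 CPM at 0 h, 52.7, 50.9 and 55.7 CPM at 24 h and 96.3, 98.1 and 88.8 CPM at 48 h. The 3 APOA4-KO libraries at 48 h were above all others. Both lines fell at 24 h, HepG2 with a log2 change of −0.27 (adjusted p = 0.000195) and APOA4-KO with one of −0.27 (adjusted p = 6.98e-05), and these differed by −0.0081 (SE 0.066, adjusted p = 0.96). At 48 h HepG2 did not differ from 0 h past the limit, with a change of −0.012 (adjusted p = 0.911), while APOA4-KO rose by 0.56 (adjusted p = 7.15e-09), and this difference between the lines was 0.57 (SE 0.066, adjusted p = 1.22e-06). Against HepG2, APOA4-KO was higher at 48 h by 0.43 (SE 0.047, adjusted p = 1.97e-07). The small deficits at 0 h and 24 h, −0.13 (adjusted p = 0.0364) and −0.14 (adjusted p = 0.0172), were lost when counts were scaled to the library size alone (adjusted p of 0.0741 and 0.192). They were also lost in limma on log2(FPKM + 1) (adjusted p of 0.0786 and 0.196). The one at 0 h was lost as well in DESeq2 (adjusted p = 0.0873), with its size factors (0.0984) and in a fit to only the groups compared (0.13). Either call was also lost when single libraries were left out, the one at 0 h without HepG2 replicate 1 (adjusted p = 0.0507) or 3 (0.144) or APOA4-KO replicate 2 (0.141) or 3 (0.115), and the one at 24 h without HepG2 replicate 1 (0.0666) or APOA4-KO replicate 1 (0.072) or 2 (0.0885).

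Within the FOXA family the make-up of the transcripts shifted. FOXA1 made up 32.9% ± 0.860 (SD, n = 3) of the summed FPKM of the 3 genes in HepG2 cells at 0 h, then 24.8% ± 1.23 at 24 h and 29.4% ± 2.35 at 48 h. In APOA4-KO its share was 25.9% ± 0.546, 19.5% ± 2.40 and 16.9% ± 1.14. FOXA2 held 21.5% ± 1.40 in HepG2 at 0 h and 18.4% ± 3.78 at 48 h, and 30.2% ± 5.18 and 34.6% ± 4.60 in APOA4-KO. At 24 h FOXA2 was at its highest share in both lines, 32.8% ± 2.69 and 44.8% ± 5.38, in APOA4-KO ahead of FOXA3 at 35.7% ± 3.06. The ratio of FOXA3 to FOXA1 was 1.30 to 1.50 in HepG2 at 0 h, 1.66 to 1.84 in HepG2 at 48 h and 2.78 to 2.97 in APOA4-KO at 48 h, groups that did not overlap. It was 1.67 to 1.76 in HepG2 at 24 h, and 1.59 to 1.87 and 1.77 to 1.95 in APOA4-KO at 0 h and 24 h. Each of these ranges overlapped that of HepG2 at 48 h. With annotated lengths FOXA1 made up 35.3% in HepG2 at 0 h and 18.4% in APOA4-KO at 48 h. These shares are a description and were not tested.

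HNF4A, the nuclear receptor at the centre of the network, was the steadiest member, with a span of group means of 1.34-fold. HepG2 had 335, 334 and 332 CPM at 0 h, 294, 280.4 and 286 CPM at 24 h and 337, 346 and 346 CPM at 48 h. APOA4-KO had 374, 374 and 368 CPM at 0 h, 361, 364 and 371 CPM at 24 h and 379.6, 385 and 392 CPM at 48 h. Every APOA4-KO library was above every HepG2 library on this scale. The log2 fold change between the lines was 0.16 (SE 0.021, adjusted p = 8.28e-06) at 0 h, 0.35 (SE 0.021, adjusted p = 6.44e-11) at 24 h and 0.17 (SE 0.021, adjusted p = 1.17e-06) at 48 h. HepG2 was lower at 24 h than at 0 h, with a change of −0.22 (adjusted p = 1.46e-07), and did not differ past the limit at 48 h, 0.040 (adjusted p = 0.179), though it passed it without HepG2 48 h replicate 1 (adjusted p = 0.0418), APOA4-KO 24 h replicate 1 (0.05 after rounding) or APOA4-KO 48 h replicate 1 (0.0444). This change also passed with the library size alone (0.054, adjusted p = 0.0438) and in a fit to only the groups compared (0.070, adjusted p = 0.0201). APOA4-KO at 24 h did not differ from 0 h past the limit, −0.027 (adjusted p = 0.345), and the changes of the lines differed by 0.19 (SE 0.029, adjusted p = 4.66e-05). Values of this size at 48 h depended on the scaling. With the library size alone, the median of all genes moved from −0.068 to −0.23 in the change of APOA4-KO to 48 h, and HNF4A turned from 0.051 (adjusted p = 0.0501) to −0.11 (adjusted p = 0.000108). Relative to that median it was 0.12 under both scalings. With all libraries and TMM scaling this change was not called, just short of the limit. It passed the limit in 15 of 18 refits with 1 library left out, with an adjusted p of 0.00635 to 0.182. As a rise it also passed with DESeq2 size factors (0.073, adjusted p = 0.00897), in DESeq2 (0.073, adjusted p = 0.00226) and without the low-count filter (0.064, adjusted p = 0.0339). A fit to only the groups compared called it too (0.082, adjusted p = 0.00762). The line difference at 48 h was likewise 0.019 (adjusted p = 0.449) with the library size alone, against 0.21 relative to the median under both.

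ONECUT1 was low in HepG2 and higher in APOA4-KO at every time. HepG2 libraries had 7.64, 7.92 and 7.69 CPM at 0 h, 7.70, 9.43 and 8.13 CPM at 24 h and 8.91, 8.83 and 9.63 CPM at 48 h. APOA4-KO libraries had 12.4, 15.1 and 16.6 CPM at 0 h, 27.1, 28.1 and 25.6 CPM at 24 h and 25.3, 21.7 and 22.4 CPM at 48 h. The 9 libraries of the edited line were all above the 9 of HepG2. The log2 fold change was 0.93 (SE 0.10, adjusted p = 4.74e-07) at 0 h, 1.68 (SE 0.10, adjusted p = 3.82e-11) at 24 h, a 3.20-fold higher level, and 1.34 (SE 0.10, adjusted p = 6.41e-10) at 48 h. No change from 0 h was past the limit in HepG2, with 0.12 (adjusted p = 0.425) and 0.24 (adjusted p = 0.0837). The latter passed it without APOA4-KO 0 h replicate 1 (0.25, adjusted p = 0.025) or 3 (0.25, adjusted p = 0.0424). Those libraries of the other line enter through the filter, the scaling and the estimate of spread, which all groups share. The change to 48 h in HepG2 also passed the limit in a fit to only the groups compared (0.26, adjusted p = 0.0363). In APOA4-KO ONECUT1 rose by 0.87 (adjusted p = 2.4e-07) at 24 h and 0.65 (adjusted p = 8.93e-06) at 48 h. These changes differed between the lines by 0.75 (SE 0.13, adjusted p = 0.000215) and 0.42 (SE 0.13, adjusted p = 0.0203), of which the latter was lost without APOA4-KO 0 h replicate 1 (adjusted p = 0.0533), without APOA4-KO 48 h replicate 1 (0.061) and with the library size alone (0.25, adjusted p = 0.19).

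PROX1, a homeodomain protein that can repress targets of HNF4A and NR5A2, was the member whose lines lay closest at 0 h and then parted. HepG2 had 71.4, 70.4 and 66.3 CPM at 0 h, 69.8, 68.0 and 67.6 CPM at 24 h and 91.6, 89.7 and 91.2 CPM at 48 h. APOA4-KO had 69.1, 70.6 and 69.6 CPM at 0 h, 115, 117 and 114 CPM at 24 h and 133, 138 and 142 CPM at 48 h. At 0 h the libraries of the lines overlapped, with a log2 fold change of 0.0080 (SE 0.032, adjusted p = 0.904). At 24 h and 48 h every APOA4-KO library was higher, by 0.75 (SE 0.032, adjusted p = 6.49e-13) and 0.60 (SE 0.032, adjusted p = 9.81e-12). In HepG2 PROX1 rose at 48 h by 0.39 (adjusted p = 3.39e-08), after −0.020 (adjusted p = 0.73) at 24 h, which was −0.092 (adjusted p = 0.0333) with the library size alone. The rise in APOA4-KO was 0.73 (adjusted p = 1.21e-12) at 24 h and 0.98 (adjusted p = 9.22e-15) at 48 h, a 1.97-fold level. The lines differed in the change by 0.75 (SE 0.046, adjusted p = 6.77e-10) to 24 h and 0.59 (SE 0.046, adjusted p = 5.32e-09) to 48 h.

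NR5A2 was near the limit of what these libraries could show. Its 3 libraries held 36, 47 and 38 counts in HepG2 at 0 h, 39, 44 and 40 counts at 24 h and 72, 56 and 62 counts at 48 h. Those of APOA4-KO held 46, 37 and 21 counts at 0 h, 94, 48 and 75 counts at 24 h and 12, 12 and 32 counts at 48 h, out of library totals of at least 76481820. Since counts came in excess at multiples of 4, a count of 12 may stand for few read pairs. The test called NR5A2 lower in APOA4-KO at 48 h, −1.45 (SE 0.42, adjusted p = 0.00727), where the 3 libraries of each line did not overlap. The differences of −0.24 (adjusted p = 0.744) at 0 h and 0.84 (adjusted p = 0.104) at 24 h were not called, though the one at 24 h passed the limit with counts divided by 4 (0.86, adjusted p = 0.0492) and in limma on log2(FPKM + 1) (0.075, adjusted p = 0.02). From 0 h the 1 change past the limit was the rise of APOA4-KO at 24 h, 1.11 (adjusted p = 0.0354), which was lost without the filter on low counts (0.0642) and without APOA4-KO 0 h replicate 2 (0.0783) or 3 (0.146) or APOA4-KO 24 h replicate 1 (0.124) or 3 (0.0723). The other changes were 0.032 (adjusted p = 0.975) and 0.54 (adjusted p = 0.399) in HepG2 and −0.68 (adjusted p = 0.204) in APOA4-KO at 48 h, which passed the limit without APOA4-KO 48 h replicate 3 (−1.33, adjusted p = 0.0164). The changes of the lines differed by 1.07 (adjusted p = 0.189) to 24 h and by −1.22 (adjusted p = 0.123) to 48 h, and without that library the latter was −1.87 (adjusted p = 0.0128).

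The second comparison asked how each line changed in hypoxia, and its changes to 24 h and to 48 h share the 0 h libraries of their line. In HepG2, 0 members rose and 4 fell at 24 h (11.4% and 18.3% of all tested genes), and 1 rose and 2 fell at 48 h (13.1% and 14.6%). In APOA4-KO, 4 rose and 3 fell at 24 h (21.5% and 22.8% of all genes), and 4 rose and 2 fell at 48 h (23.9% and 25.9%). With the fold limit as well, no member was called in HepG2 at 24 h (3.08% of all genes) or 48 h (2.18%), and in APOA4-KO CEBPA and NR5A2 were called at 24 h (5.88%) and CEBPA at 48 h (12.2%). At an unadjusted p under 0.05, FOXA2 also rose in HepG2 at 24 h, as 1 member of the 8, DESeq2 and limma gave 0 risers there too, and a fit to only the groups compared called FOXA2 (0.51, adjusted p = 0.00105). No member passed both limits in HepG2 at an unadjusted p, and DESeq2 gave 0 at both times, while limma on log2(FPKM + 1) gave 1 at 24 h and 0 at 48 h. Members that fell in HepG2 at 24 h, HNF4A, FOXA1, FOXA3 and CEBPA, were all nearer to their 0 h level at 48 h. In APOA4-KO, FOXA1 was nearer to 0 h at 48 h than at 24 h, FOXA3 rose above it, and CEBPA stayed low. All 12 genes of a list of known hypoxia-inducible factor targets rose in both lines at both times, with a median log2 fold change at 48 h of 1.67 in HepG2 and 2.19 in APOA4-KO.

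**Figure D3:**
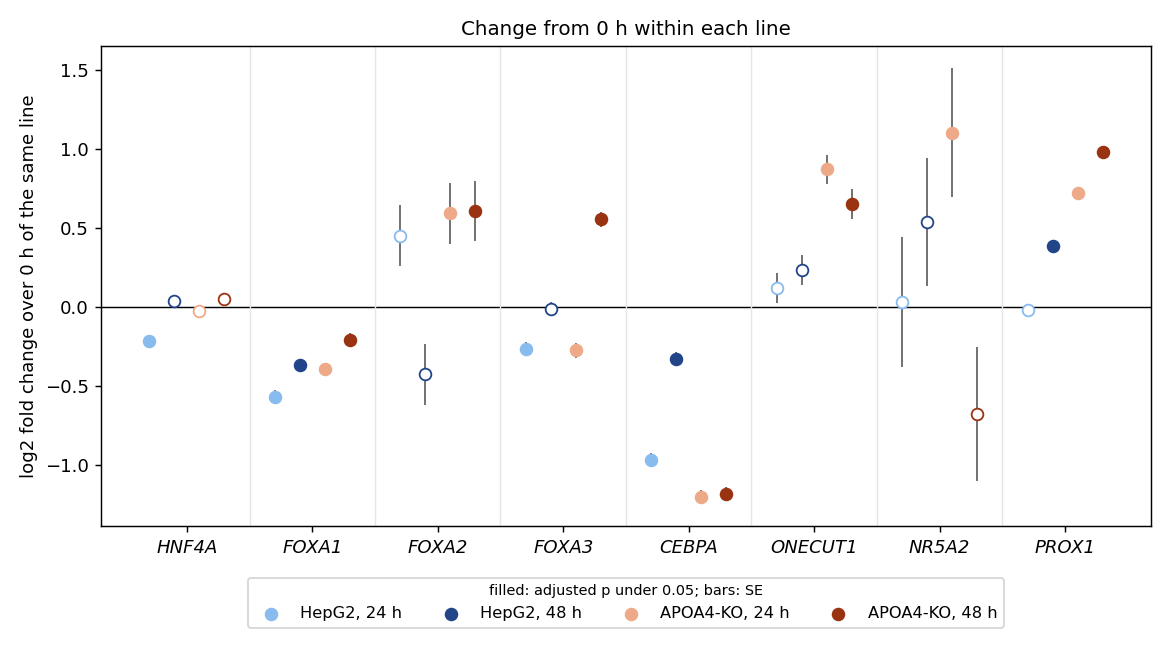
Log2 fold change from 0 h of the same line for each member at 24 h and 48 h (vertical axis, edgeR), blue for HepG2 and orange to brown for APOA4-KO, with standard errors as bars and filled points for an adjusted p under 0.05. CEBPA returns toward 0 h in HepG2 at 48 h (−0.97 to −0.33) and stays low in APOA4-KO (−1.21 and −1.18), and PROX1 rises by 0.73 and 0.98 in APOA4-KO.

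Whether a member changed unequally in the lines was tested directly. For the change to 24 h, 4 members moved higher and 1 lower in APOA4-KO than in HepG2, beside 16.8% and 15.4% of all genes, and 0 of them by a log2 difference of at least 1 (2.59% of all genes, and also 0 members at an unadjusted p, in DESeq2 and in limma). For the change to 48 h, 5 moved higher and 1 lower, beside 18.6% and 17.8%, and FOXA2 was the 1 member past both limits (7.42% of all genes), since the −1.22 of NR5A2 did not pass the test. With the library size alone FOXA2 was at 0.86 (adjusted p = 0.0181) and CEBPA at −1.02 (adjusted p = 9.07e-11), and limma on log2(FPKM + 1) gave 0 members past both limits. CEBPA was the member that moved lower at both times, and FOXA1, ONECUT1 and PROX1 moved higher at both.

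Across the 18 libraries, FOXA1 and CEBPA ran against FOXA2, ONECUT1 and PROX1, given here as a description since the libraries share 6 groups. The other members did not fall clearly on either side. FOXA3 had an r of −0.032 with CEBPA, 0.0078 with FOXA2 and 0.059 with ONECUT1, HNF4A had −0.37 with CEBPA, and NR5A2 had 0.13 with CEBPA. FOXA1 and CEBPA had a Pearson r of 0.89 in log2 CPM. ONECUT1 and PROX1 had 0.79, FOXA2 and ONECUT1 also 0.79, and HNF4A and ONECUT1 0.72. CEBPA ran against ONECUT1 with −0.86, against FOXA2 with −0.82 and against PROX1 with −0.79. Of the 28 pairs, 13 had a positive r, 1 was above 0.8 and 7 were below −0.5. How often pairs of other genes reach such values was not counted, so these counts do not set the members apart.

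**Figure D4:**
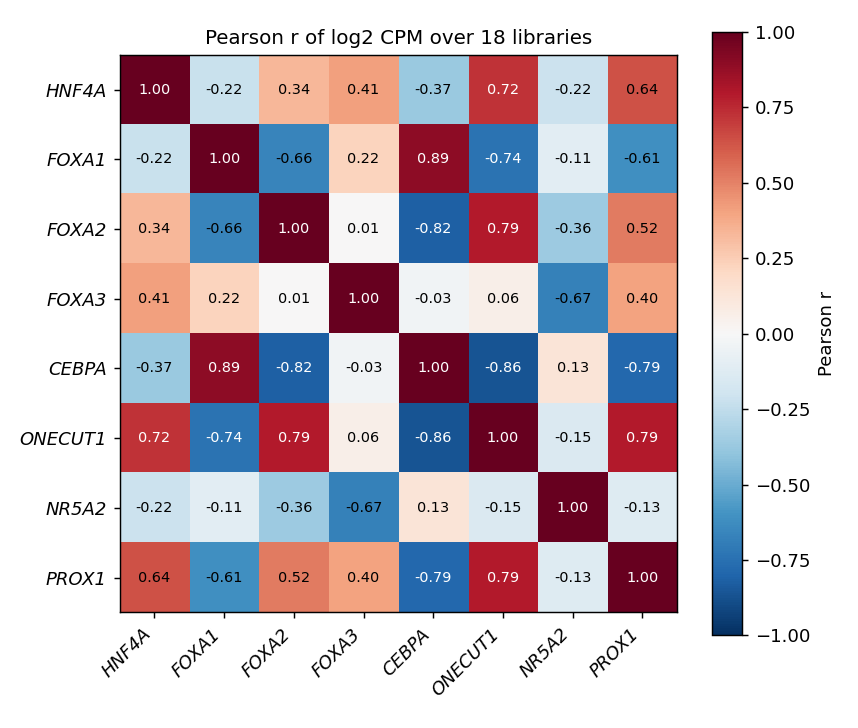
Pearson r of log2 CPM over 18 libraries for each pair of the 8 members (rows and columns), from −1 in blue to 1 in red. FOXA1 and CEBPA are the most alike (0.89), and CEBPA and ONECUT1 the most opposed (−0.86).

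The genes most like each member were taken among 10241 genes with a mean of at least 5 CPM. CEBPA was most like ECHS1, NQO1 and DGAT1, each with an r of 0.99 or above over the 18 libraries (0.996, 0.995 and 0.994). PROX1 was most like SEC24A (0.993), SP3 (0.987) and CRKL (0.987), and ONECUT1 most like RPS6KA3 (0.989), AKAP9 (0.982) and ACSL3 (0.981). For HNF4A they were MIXL1 (0.981), CREB3L2 (0.949) and PHACTR4 (0.935), for FOXA1 QPRT (0.962), CASZ1 (0.959) and SEMA6B (0.958), and for FOXA3 OSER1 (0.962), ALDH4A1 (0.953) and PPP1R16A (0.952). FOXA2 was most like GMDS (0.930), IRF2BPL (0.905) and SLC35D2 (0.904). After the group means were taken away, the deviations of single libraries gave an r of 0.70, 0.65 and 0.23 between FOXA2 and these 3 genes, and of −0.44 to 0.64 between the other members and theirs. For NR5A2 the closest were RAB11FIP3 (0.876), LINC03037 (0.861) and CPSF6 (0.860), on counts below 100.

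Noncoding genes beside the members were measured as well, 4 of 7 listed. LINC00261, next to FOXA2, had 26.0 ± 0.765 CPM (mean ± SD, n = 3) in HepG2 at 0 h and 61.5 ± 3.85 CPM in APOA4-KO, 42.2 ± 2.49 and 102 ± 6.66 CPM at 24 h, and 38.4 ± 1.92 and 44.1 ± 0.818 CPM at 48 h. The log2 fold change of this RNA over HepG2 was 1.24 (adjusted p = 6.12e-12) at 0 h, 1.27 (adjusted p = 1.05e-12) at 24 h and 0.20 (adjusted p = 0.00616) at 48 h, so that it was smallest at the time when that of FOXA2 was largest. CEBPA-DT, which starts on the other strand just before CEBPA, was at 5.47 ± 0.483, 5.10 ± 0.825 and 5.05 ± 0.302 CPM in HepG2 at the 3 times and at 3.61 ± 0.293, 4.11 ± 0.534 and 2.60 ± 0.452 CPM in APOA4-KO. Its log2 fold change over HepG2 passed the limit at 0 h, −0.60 (adjusted p = 0.00476), did not pass it at 24 h, −0.31 (adjusted p = 0.101), and passed it again at 48 h, −0.96 (adjusted p = 2.76e-05). From 0 h to 24 h, when CEBPA fell in both lines, its changes were −0.10 (adjusted p = 0.702) in HepG2 and 0.19 (adjusted p = 0.367) in APOA4-KO. HNF4A-AS1, inside HNF4A on the other strand, was at 2.74 ± 0.0919, 1.76 ± 0.0561 and 3.58 ± 0.265 CPM in HepG2 and at 4.84 ± 0.138, 3.64 ± 0.427 and 2.83 ± 0.666 CPM in APOA4-KO. It was higher in APOA4-KO at 0 h, 0.82 (adjusted p = 0.000421), and 24 h, 1.05 (adjusted p = 1.53e-05), and its value at 48 h was −0.34 (adjusted p = 0.0814), against the direction of HNF4A. PROX1-AS1 stood at 1.49 ± 0.278 and 3.01 ± 0.329 CPM at 48 h, 1.02 (adjusted p = 0.00104), after −0.084 (adjusted p = 0.848) at 0 h and −0.079 (adjusted p = 0.83) at 24 h. The sources do not say whether counting used strand, so reads of a member and of a gene overlapping it on the other strand cannot be told apart.

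Of 28 other liver transcription factors and coregulators, all were tested. In APOA4-KO 7 were higher and 7 lower at 0 h, 14 higher and 5 lower at 24 h, and 18 higher and 6 lower at 48 h, where the shares of all genes were 12.9% and 17.6%, 23.6% and 24.6%, and 23.5% and 27.3%, with a median log2 fold change at 48 h of 0.63 against −0.038 over all genes. At 48 h the largest by the naming rule were CEBPD (2.15) and HNF4G (2.12), relatives of CEBPA and HNF4A, and NR2F1 (1.85), all higher while CEBPA itself was lower. HNF4G stayed scarce beside HNF4A, with 12.8 ± 0.918 CPM in APOA4-KO at 48 h. From 0 h to 48 h, 3 of the 28 rose and 13 fell in HepG2 (13.1% and 14.6% of all genes), led by CEBPB (−1.18), CREB3L3 (−0.98) and ZHX2 (0.97), and 16 rose and 6 fell in APOA4-KO (23.9% and 25.9% of all genes), led by CEBPD (2.32), HNF4G (1.77) and ZHX2 (1.51).

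Hepatocyte genes known as targets of these factors were a list of 47, of which 44 were tested. In APOA4-KO 27 were higher and 7 lower at 0 h, 23 higher and 12 lower at 24 h, and 30 higher and 7 lower at 48 h, beside the same shares of all genes, with medians of 0.28, 0.32 and 0.47 against −0.0067, 0.0095 and −0.038 over all genes. At 48 h the naming rule gave PCK1 (7.28, 138 and 0.892 CPM in APOA4-KO and HepG2) and G6PC1 (5.16, 254 and 7.11 CPM), the enzymes that commit carbon to glucose output, and UGT1A1 (−4.18, 5.72 and 104 CPM), which conjugates bilirubin. From 0 h to 48 h, 8 rose and 15 fell in HepG2 (median −0.074, against −0.027 over all genes), with G6PC1 (−0.67), ABCG8 (−0.64) and the lipid transfer protein MTTP (0.42) named, and 20 rose and 13 fell in APOA4-KO (median 0.061, against −0.068). Of all tested genes, 13.1% rose and 14.6% fell in HepG2 at 48 h, and 23.9% and 25.9% in APOA4-KO. In APOA4-KO the rule named PCK1 (2.99), G6PC1 (1.52) and the sterol exporter ABCG8 (−1.33). CEBPA, a known activator of PCK1 and G6PC1, was at 65.0 CPM in the group in which these 2 transcripts were highest, and a link between them was not tested.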

How the data were processed

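Read pairs were cleaned with fastp by the authors and placed on GRCh38.p13 with HISAT2. The submitters' processing notes name StringTie beside these tools, while the study's methods name featureCounts, and the setting for strand is not given in the sources used here. The authors deposited gene counts without normalization between libraries, and FPKM values, in which each count had been scaled by 1 length per gene and by the total of its library. Symbols were matched to 61757 of 61806 identifiers. All 18 libraries entered 1 fit to these counts in edgeR 4.0.16 (R 4.3.3), with filterByExpr, TMM scaling, 1 coefficient per group and the quasi-likelihood test, which was first tested on simulated data. P-values were adjusted with the Benjamini-Hochberg method over all 19743 genes. CPM values are TMM-scaled. Alternatives were scaling to the library size or with DESeq2 size factors, no filter on low counts, DESeq2 1.42.0, limma 3.58.1 on log2(FPKM + 1) and log2(FPKM + 0.1), counts divided by 4, only the groups compared, each library left out, the annotated exonic length for levels between genes (chosen after the data were seen) and the replicate number as a block. The members and the gene lists were chosen with earlier results of these data known. Of each list, the 3 genes with the largest absolute log2 fold change at an adjusted p under 0.05 and a mean of at least 10 CPM in the higher group were named, for the lines at 48 h and the change to 48 h in each line. The values of 1 gene so chosen are not reported here. The depth of the libraries limits NR5A2 most.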

Additional observations from a re-analysis of the deposited data

Results flagged for a closer look

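For 5 members at 24 h and 6 at 48 h, the change from 0 h was not the same in both lines by the test of that difference. Of all tested genes, 16.8% moved higher and 15.4% lower in APOA4-KO than in HepG2 at 24 h, and 18.6% and 17.8% at 48 h. All values are log2 differences, positive where APOA4-KO moved higher than HepG2, from edgeR's quasi-likelihood test. At 24 h they were 0.19 (adjusted p = 4.66e-05) for HNF4A, 0.17 (adjusted p = 0.0259) for FOXA1, −0.24 (adjusted p = 0.00557) for CEBPA, 0.75 (adjusted p = 0.000215) for ONECUT1 and 0.75 (adjusted p = 6.77e-10) for PROX1. At 48 h they were 0.16 (adjusted p = 0.0346) for FOXA1, 1.04 (adjusted p = 0.0055) for FOXA2, 0.57 (adjusted p = 1.22e-06) for FOXA3, −0.85 (adjusted p = 2.53e-09) for CEBPA, 0.42 (adjusted p = 0.0203) for ONECUT1 and 0.59 (adjusted p = 5.32e-09) for PROX1. CEBPA was the 1 member with a negative value at both times. When single libraries were left out, FOXA1 kept its call in 15 of 18 refits at 24 h and in 10 at 48 h. ONECUT1 kept its call at 48 h in 16 of 18. Scaled to the library size alone, FOXA1 at 48 h was at −0.011 (adjusted p = 0.925) and ONECUT1 at 0.25 (adjusted p = 0.19). Both changes of a line share its 0 h libraries, and groups of 3 were too small for a test of single outlying libraries.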

How the results depend on the processing

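Of the 72 comparisons of single members, 44 kept their direction and their side of the limit under all 27 alternatives planned for them. Scaling to the library size alone, or limma on log2(FPKM + 1) and log2(FPKM + 0.1), turned the HNF4A change in APOA4-KO to 48 h to −0.11, −0.10 and −0.11, its difference between the lines in that change to −0.16 in all 3, that of FOXA1 to −0.011, −0.0062 and −0.011, the FOXA3 change in HepG2 to 48 h to 0.0025, 0.0035 and 0.0036, and the FOXA3 difference in the change to 24 h to 0.036, 0.035 and 0.036. The HNF4A difference in the change to 48 h passed the limit with the library size alone (adjusted p = 8.86e-05 in edgeR), against 0.011 (adjusted p = 0.837) with TMM scaling. Relative to the median of all genes it was 0.049 and 0.050. The library size alone also turned the NR5A2 change in HepG2 to 24 h to −0.041, and it moved the median of all genes from −0.068 to −0.23 in APOA4-KO at 48 h. The PROX1 change in HepG2 to 24 h was 0.015 with DESeq2 and with its size factors, and 0.034 with only the groups compared. The latter gave 0.018 for FOXA3 in HepG2 at 48 h, and 5 members called there in place of 3. Without the low-count filter the FOXA3 difference at 24 h was 0.0062. Past both limits, DESeq2 gave 2 members in APOA4-KO at 48 h in place of 1, and limma on log2(FPKM + 1) gave 2 in place of 4 between the lines at 48 h, 1 in place of 2 in APOA4-KO at 24 h, 1 in place of 0 in HepG2 at 24 h and 0 in place of 1 for the difference in the change to 48 h.

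With 1 library left out, values that turned ranged from −0.028 to 0.031 for PROX1 and from −0.57 to 0.029 for NR5A2 between the lines at 0 h. In HepG2 at 24 h they ranged from −0.044 to 0.16 for NR5A2 and from −0.049 to 0.0087 for PROX1, and at 48 h from −0.013 to 0.036 for FOXA3. HNF4A in APOA4-KO at 24 h ranged from −0.027 to 0.00023. Differences in the change ranged from −0.025 to 0.054 for FOXA3 and from −0.0065 to 0.31 for FOXA2 at 24 h, and from −0.0013 to 0.024 for HNF4A at 48 h. None of these 9 results passed the limit with all libraries.

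The replicate numbers did not pair the libraries: deviations of same-numbered libraries had correlations of −0.144 to 0.0511, and 0 libraries correlated best with their own number. With the number as a block, 7 members were called between the lines at 24 h and 6 in APOA4-KO at 24 h, where NR5A2 lost its call (adjusted p = 0.0529), and the block changed no other call. The low counts of NR5A2 limit its precision, the cultures behind the libraries are not described as separate, and the causes of these shifts were not tested beyond the median given.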

Other observations

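Other gene groups were compared between the lines at 48 h, where 23.5% of all tested genes were higher and 27.3% lower in APOA4-KO. The genes named had the largest fold changes among those called with a mean of at least 10 CPM in the higher group. Of 10 fetal and tumor-associated liver genes, 7 were higher and 1 lower in APOA4-KO, with AFP (2.71 in log2), IGF2 (1.90) and DLK1 (1.31). Of 11 biliary genes tested, 4 were higher and 3 lower, with PROM1 (3.03), SPP1 (−1.31) and SOX9 (1.06). Of 11 mesenchymal genes tested, 5 were higher and the other 6 did not pass the test, with ZEB1 (1.76), FN1 (0.99) and TGFBI (0.077). Of 13 markers of other cell types tested, 3 were higher and 2 lower, with CD68 (0.71), ACTA2 (−0.48) and PDGFRB (0.14) named. Of 12 hypoxia-inducible factor targets, 10 were higher and 2 lower, with ANKRD37 (2.12), CA9 (2.09) and VEGFA (1.79). All 12 were already higher in APOA4-KO at 0 h, with a median log2 fold change of 0.47. At that time 12.9% of all tested genes were higher and 17.6% lower.

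In the change from 0 h to 48 h, 13.1% of all tested genes rose and 14.6% fell in HepG2, and 23.9% and 25.9% in APOA4-KO. Of the 11 biliary genes tested, 6 rose and the other 5 did not pass the test in HepG2, among them CD24 (0.29) and KRT23 (0.28), and 8 rose and 1 fell in APOA4-KO, among them KRT7 (−1.83) and SOX9 (0.98). Among mesenchymal genes, 1 rose and 3 fell in HepG2, with SPARC (−0.54), CDH2 (−0.25) and TGFBI (0.14), and 4 rose and 4 fell in APOA4-KO, with VIM (−1.63), ZEB1 (1.46) and FN1 (0.66). Among fetal genes, 4 rose and 3 fell in HepG2, with IGF2 (0.38), LIN28B (0.27) and DLK1 (−0.27), and 5 rose and 3 fell in APOA4-KO, with IGF2 (1.25), LIN28B (−0.46) and PEG10 (−0.42). Among markers of other cell types, 3 rose and 1 fell in HepG2 and 2 rose and 3 fell in APOA4-KO, and PDGFRB (0.49), ACTA2 (−0.39) and CD68 (0.20) were named in HepG2, and CD68 (1.27), PDGFRB (0.43) and ACTA2 (−0.34) in APOA4-KO. The hypoxia-inducible factor targets named were CA9 (2.99), PFKFB4 (2.86) and ADM (2.43) in HepG2 and ADM (3.58), EGLN3 (3.57) and CA9 (3.42) in APOA4-KO. LINC00261 changed by 0.56 in HepG2 and −0.48 in APOA4-KO. All values in these paragraphs are from edgeR at an adjusted p under 0.05.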
